A study of Homo sapiens with 12 samples.

Results

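The genes CDX2, CEACAM1, ALPP and PRAC2, grouped here under intestinal identity, were followed across 12 RNA-seq libraries of SW480 cells. The 4 genes were taken by symbol from a deposited table of 3699 genes, and each symbol matched 1 row. SW480 is an established line from a human colorectal adenocarcinoma (1 label field writes SW483). The cells were grown in IMDM with 10% serum and left untreated, or given PUE, GLY, or GLY and PUE together (GLY_PUE), with 3 libraries in each of the 4 groups; the labels do not spell out the abbreviations and give no dose. The protocol gives 12 h of treatment for all groups, and the labels of the 3 GLY libraries read 12, 13 and 14 h. No label ties the libraries of a group to different cultures. The p-values below therefore rest on library-to-library spread, part or all of which may be technical. Every gene in the table has an absolute log2 ratio of at least 1 with q at most 0.001 in at least 1 of the comparisons in the authors' deposited table. The genes of the table were thus chosen on these libraries, and a call made on them here is not independent evidence of a change.

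CDX2 is a caudal-type homeobox transcription factor that sets and maintains intestinal identity, and its loss is a known feature of a subset of poorly differentiated colorectal cancers. CEACAM1 is a cell adhesion glycoprotein of the carcinoembryonic antigen family, made on the apical side of colon epithelium and on many other epithelia, endothelia and leukocytes. It is spliced into isoforms with a long or a short cytoplasmic tail. ALPP is the placental alkaline phosphatase, a close relative of the intestinal enzyme ALPI, and is also made by some tumours. PRAC2 lies beside HOXB13 at the end of the HOXB cluster and is known from prostate and distal colon. Of the 4 genes, only CDX2 is a defining marker of intestinal cells, so they are described here one by one rather than as a programme.

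Upstream sequence is shown for the regulator CDX2, for CEACAM1, which moved the opposite way, and for ALPP beside its near copy ALPG, to show how alike the 2 loci are. RefSeq windows on GRCh38.p14 were found for all 4 genes, and the 250 bases before the annotated start are printed 5′ to 3′ on the gene's strand. The CDX2 window is chr13:27969316-27969565 (minus strand) and the CEACAM1 window is chr19:42528482-42528731 (minus strand). Capitals mark the letters TTTAT, the core bound by caudal homeobox proteins, and CTTTGA, the core bound by TCF/LEF factors, each on either strand.
CDX2: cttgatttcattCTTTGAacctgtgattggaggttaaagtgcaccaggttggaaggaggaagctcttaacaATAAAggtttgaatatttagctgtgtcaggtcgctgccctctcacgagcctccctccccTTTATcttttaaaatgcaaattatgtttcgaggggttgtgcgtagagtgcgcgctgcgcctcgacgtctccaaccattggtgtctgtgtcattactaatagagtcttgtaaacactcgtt
CEACAM1: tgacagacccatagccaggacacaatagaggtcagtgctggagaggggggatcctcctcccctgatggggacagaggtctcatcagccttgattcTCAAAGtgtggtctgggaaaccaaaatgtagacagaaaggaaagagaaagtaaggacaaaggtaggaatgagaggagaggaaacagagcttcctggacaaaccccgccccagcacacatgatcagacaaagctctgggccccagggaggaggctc

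Windows of 300 bases, from 250 before to 50 after the start, were searched for each motif on both strands. The CDX2 window held TTTAT at 2 places, starting 179 bases (reverse strand) and 120 bases (forward strand) before the start. It held CTTTGA at 1 place, starting 238 bases before the start. The CEACAM1 window held CTTTGA at 1 place, on the reverse strand, starting 155 bases before the start, and no TTTAT. Neither motif was found in the ALPP window or in the 2 windows of PRAC2, which has 2 annotated starts. Of 35116 windows of this length in the RefSeq table, 34.9% held TTTAT and 12.9% held CTTTGA, so these matches are common and are a description of letters only. The AP-1 letters TGANTCA, where N is any base, were in 7.71% of all windows and in none of these.

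The ALPP window is chr2:232378501-232378750 and the ALPG window chr2:232406594-232406843 (both plus strand, GRCh38.p14). ALPG is a germ cell alkaline phosphatase gene next to ALPP. Capitals mark the bases that differ in a global alignment of the pair, gaps included.
ALPP: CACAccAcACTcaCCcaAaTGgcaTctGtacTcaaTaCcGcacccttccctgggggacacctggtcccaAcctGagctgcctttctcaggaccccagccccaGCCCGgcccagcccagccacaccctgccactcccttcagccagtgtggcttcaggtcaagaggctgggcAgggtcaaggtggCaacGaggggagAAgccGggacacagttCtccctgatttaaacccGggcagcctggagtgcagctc
ALPG: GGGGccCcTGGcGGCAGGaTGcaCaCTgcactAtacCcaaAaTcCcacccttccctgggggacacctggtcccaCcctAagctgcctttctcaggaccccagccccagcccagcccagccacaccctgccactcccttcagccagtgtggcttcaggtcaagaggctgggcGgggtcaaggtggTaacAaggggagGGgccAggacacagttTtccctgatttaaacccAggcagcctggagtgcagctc
The aligned windows were identical at 216 of 256 positions (84.4%). ALPP and the intestinal gene ALPI shared 59.8% of aligned positions, and CEACAM1 shared 66.2% with CEACAM5 and 68.2% with CEACAM6.

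Library totals, recovered from the ratio of the deposited counts to the deposited expression values, were 19.7 to 21.4 M reads (M, 1e+06). Counts are given below as counts per 1e+06 reads of that total (CPM), and levels are compared between genes only by the expression column, which is per length (FPKM). The libraries numbered 3 were the highest or the lowest of every group for CEACAM1 and CDX2, but not for ALPP and PRAC2. Number 3 lay between numbers 1 and 2 for ALPP in untreated cells and for PRAC2 with GLY and GLY_PUE. For CEACAM1, number 3 was the highest of its group in all 4 groups, at 1.97 to 2.30 times the mean of numbers 1 and 2. For CDX2, number 3 was the highest with untreated cells and PUE and the lowest with GLY and GLY_PUE. Of the markers of colorectal epithelium, CDX2 and VIL1 were detected in every library, and most others were not analysed here.

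CDX2 was the most abundant of the 4 genes per length in untreated cells and fell with GLY, whether or not PUE was present. Untreated libraries held 64.6, 67.8 and 84.5 CPM of CDX2, and PUE libraries 64.5, 66.3 and 85.7 CPM. GLY libraries held 18.4, 12.5 and 8.96 CPM, and GLY_PUE libraries 11.1, 12.2 and 10.2 CPM. The groups without GLY overlapped each other, and every library with GLY was below every library without it. Group means were 72.3 ± 10.7 CPM untreated, 72.2 ± 11.7 with PUE, 13.3 ± 4.75 with GLY and 11.2 ± 0.986 with GLY_PUE (SD, n = 3). The log2 fold change was -2.44 (SE 0.28) in GLY against untreated (edgeR quasi-likelihood test, Benjamini-Hochberg adjusted p = 5.27e-05). It was -2.69 (SE 0.29) in GLY_PUE against untreated (edgeR adjusted p = 3.37e-05) and -2.69 in GLY_PUE against PUE (edgeR adjusted p = 3.26e-05). The comparisons against untreated share their control libraries. Without the 4 libraries numbered 3, the log2 fold changes against untreated were -2.10 with GLY and -2.50 with GLY_PUE (edgeR adjusted p = 0.00123 and 0.000788).

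These calls stand in a table where most genes were called. In GLY against untreated, 2890 of 3429 genes tested (84.3%) had an edgeR adjusted p under 0.05, with 64.6% lower and 19.7% higher. In GLY_PUE against untreated the share was 77.3% (57.1% lower, 20.2% higher), and in GLY_PUE against PUE it was 77.8% (57.3% lower, 20.6% higher). In the same order, the 2 groups compared did not overlap for 83.3%, 87.4% and 87.8% of genes, so groups apart, as for each of the 4 genes, were common in this table. In bulk RNA, fewer cells that express a gene and less of its RNA per cell cannot be told apart. By size, CDX2 was nearer the edge: 241 genes (7.03%) had a lower log2 fold change with GLY and 169 (4.93%) with GLY_PUE, against medians over all genes tested of -1.15 and -1.03.

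The scaling sets where this table is centred. TMM scaling, which takes the typical gene of the table as unchanged, raised log2 fold changes by 1.13 in GLY against untreated and by 1.01 in GLY_PUE against untreated. Under TMM, 33.8% of genes were called in GLY against untreated (10.1% lower, 23.7% higher) and 35.3% in GLY_PUE against untreated (11.5% lower, 23.8% higher). The split of calls in GLY against untreated was thus 674 higher and 2216 lower by library totals, and 812 higher and 346 lower under TMM. CDX2 was still lower under TMM, with log2 fold changes of -1.22 with GLY and -1.67 with GLY_PUE (edgeR adjusted p = 0.00784 and 0.00102).

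**Figure D1:**
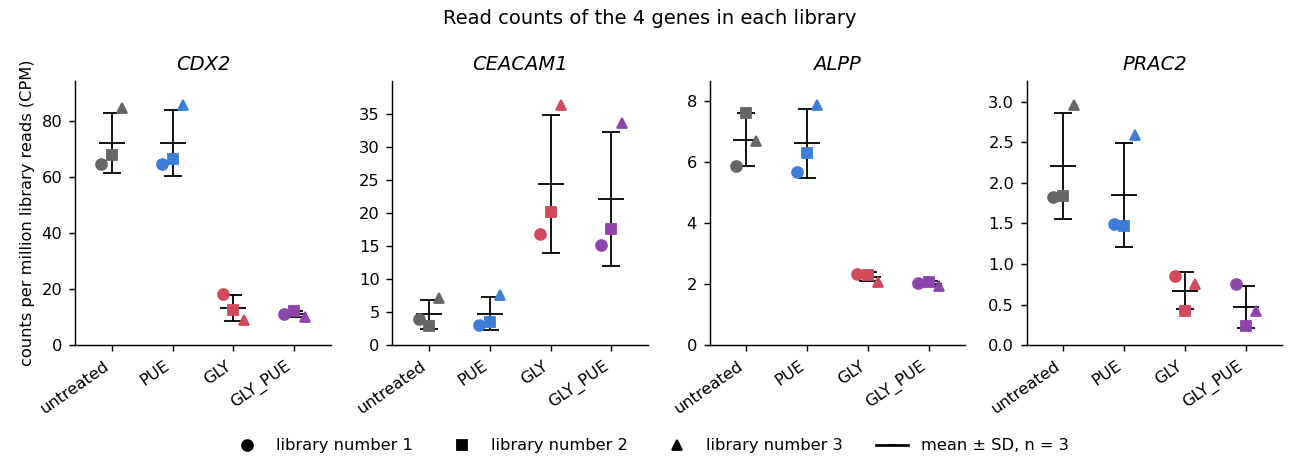
Counts per 1e+06 library reads, CPM (y axis, from 0, a separate scale for each gene) in the 12 libraries by group (x axis); symbols give the library number, and bars the mean ± SD of 3 libraries. CDX2, ALPP and PRAC2 were lower in every library with GLY than in any without it, CEACAM1 was higher, and the triangles of CEACAM1 (number 3) were the highest of each group.

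CEACAM1 rose with GLY, against the direction of most of the table. Its untreated libraries held 3.95, 2.97 and 7.09 CPM, and its PUE libraries 3.11, 3.53 and 7.65 CPM. With GLY the values were 16.8, 20.1 and 36.3 CPM, and with GLY_PUE 15.1, 17.6 and 33.6 CPM. The lowest library with GLY or GLY_PUE, at 15.1 CPM, was above the highest without GLY, at 7.65 CPM, although number 3 was well above its fellows in each group. Group means were 4.67 ± 2.15, 4.76 ± 2.51, 24.4 ± 10.4 and 22.1 ± 10.1 CPM in the order untreated, PUE, GLY and GLY_PUE (SD, n = 3). The log2 fold change was 2.38 (SE 0.48) with GLY (edgeR adjusted p = 0.00116) and 2.24 (SE 0.48) with GLY_PUE (edgeR adjusted p = 0.00171), both against untreated. In GLY_PUE against PUE it was 2.21 (edgeR adjusted p = 0.00175). Only 108 of the genes tested (3.15%) had a higher log2 fold change with GLY, and 122 (3.56%) with GLY_PUE. Under TMM the values were larger, 3.52 and 3.26. Leaving out the libraries numbered 3 gave 2.41 with GLY and 2.23 with GLY_PUE (edgeR adjusted p = 0.000747 and 0.000883).

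The deposited columns also hold a length for CEACAM1, since CPM divided by FPKM gives the length in kb by which the authors divided the count. For CEACAM1 this implied length was 3.43, 3.37 and 2.57 kb in the untreated libraries and 3.38, 3.42 and 3.43 kb with PUE. It was 2.35, 2.26 and 2.29 kb with GLY and 2.18, 2.34 and 2.68 kb with GLY_PUE. All GLY libraries were below all PUE and untreated libraries, while untreated number 3 (2.57 kb) lay below GLY_PUE number 3 (2.68 kb). No test was run on this length. The GENCODE 29 annotation lists 8 protein-coding CEACAM1 transcripts of 417 to 3519 bases, with 3519, 3427 and 3170 bases the longest 3. For ALPP, which has 1 protein-coding transcript of 2971 bases there, the implied length hardly moved, at 2.91 to 2.94 kb. It was 2.53 to 3.23 kb for CDX2 and 0.512 to 0.608 kb for PRAC2, and for both genes the libraries with and without GLY overlapped. Transcript-level values were not analysed here, so which CEACAM1 transcripts the reads came from was not tested. Division by a shorter length makes the difference larger per length than in reads: the mean FPKM of CEACAM1 was 1.60 untreated and 10.6 with GLY.

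**Figure D2:**
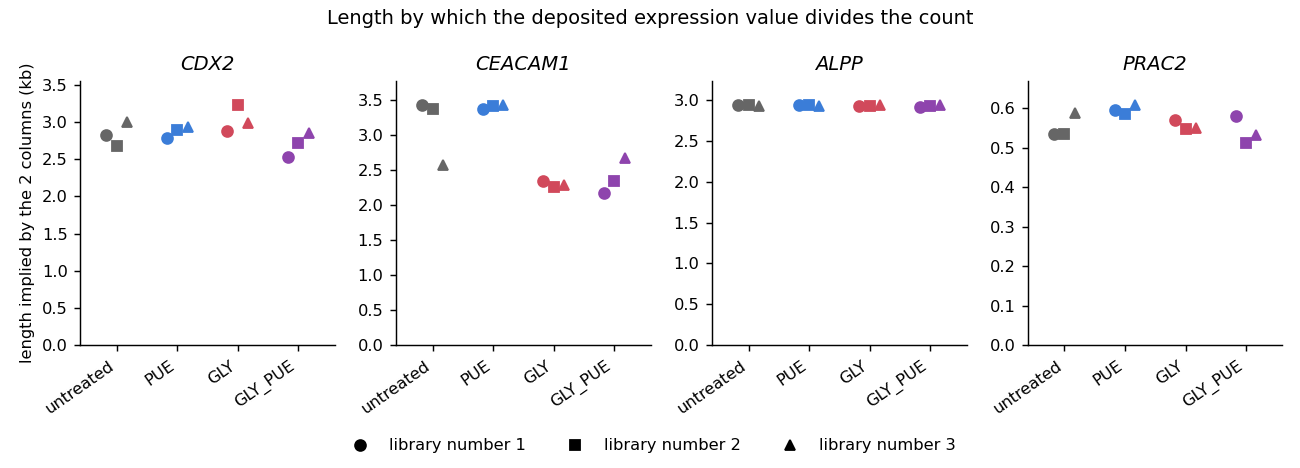
Length in kb implied by the deposited count, expression value and library total (y axis, from 0, a separate scale for each gene) for each library by group (x axis), with symbols for the library number. CEACAM1 lay at 3.37 kb or more in 5 of the 6 libraries without GLY and at 2.68 kb or less in all 6 with it, whereas ALPP stayed between 2.91 and 2.94 kb.

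ALPP was expressed at a low level and fell with GLY. Untreated libraries held 5.87, 7.60 and 6.68 CPM of ALPP, and PUE libraries 5.67, 6.28 and 7.85 CPM. GLY libraries held 2.34, 2.31 and 2.08 CPM, and GLY_PUE libraries 2.04, 2.08 and 1.94 CPM. The libraries with GLY lay close together and below all others. The log2 fold change was -1.59 (SE 0.24) with GLY against untreated (edgeR adjusted p = 0.000231), -1.73 (SE 0.24) with GLY_PUE against untreated (edgeR adjusted p = 0.000158) and -1.70 in GLY_PUE against PUE (edgeR adjusted p = 0.000181). These changes were not far from the middle of the table, since 25.3% of genes tested had a lower value with GLY and 18.5% with GLY_PUE. Under TMM the log2 fold change was -0.44 with GLY, which was not called (edgeR adjusted p = 0.222), and -0.73 with GLY_PUE (edgeR adjusted p = 0.0348). ALPP counts, like those of CEACAM1, were fractional in all 12 libraries. For CEACAM1, 3.29% of the 50-base words in the GENCODE 29 transcripts also occur in other genes, CEACAM3, CEACAM5 and CEACAM6 among them. In the GENCODE 29 transcripts, 25.3% of the 50-base words of ALPP also occur in other genes, ALPG and ALPI among them, and 12.7% of its 100-base words occur in ALPG. The listed levels of those relatives were far lower, at most 0.18 FPKM for ALPG and 0.38 FPKM for ALPI in any library, beside 0.66 to 2.68 FPKM for ALPP. How the reads were divided between the 3 genes is not given in the sources used here. The transcripts of AC068134.1 overlap 20.6% of ALPP exon bases on the opposite strand, and whether counting used strand is not given either.

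PRAC2 had the fewest reads of the 4 genes, and its values are the least precise. The deposited counts were 37, 36.9 and 60 reads untreated and 30, 29.93 and 51 reads with PUE. With GLY they were 18, 9 and 15.96 reads, and with GLY_PUE 16, 5 and 9 reads. On the CPM scale this is 1.83, 1.84 and 2.96 untreated, 1.49, 1.47 and 2.59 with PUE, 0.850, 0.421 and 0.749 with GLY, and 0.749, 0.235 and 0.426 with GLY_PUE. Every library with GLY was below every library without it, though the highest with GLY (0.850 CPM) and the lowest without it (1.47 CPM) stand for only 18 and 29.93 reads. The log2 fold change was -1.70 (SE 0.44) with GLY (edgeR adjusted p = 0.00461) and -2.22 (SE 0.46) with GLY_PUE (edgeR adjusted p = 0.00141), both against untreated, and -1.96 in GLY_PUE against PUE (edgeR adjusted p = 0.00278). Lower values were found for 21.3% of genes tested with GLY and 9.71% with GLY_PUE. Under TMM no PRAC2 comparison was called: the log2 fold change was -0.52 with GLY (edgeR adjusted p = 0.464), -1.18 with GLY_PUE (edgeR adjusted p = 0.0559) and -0.92 in GLY_PUE against PUE (edgeR adjusted p = 0.145). In GENCODE 29, 18.1% of the 50-base words of PRAC2 also occur in the overlapping entries RF02132 and RF02133.

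Per length, the order of the 4 genes changed with GLY. In untreated cells CDX2 was first at 22.9 to 28.2 FPKM, followed by PRAC2 (3.42 to 5.03), ALPP (2.00 to 2.59) and CEACAM1 (0.880 to 2.76). The last 2 overlapped, so their order is not resolved. With PUE the order of the means was the same, with overlap between PRAC2 and ALPP and between ALPP and CEACAM1. With GLY, CEACAM1 was first at 7.16 to 15.8 FPKM, above CDX2 at 3.00 to 6.40 FPKM, and PRAC2 (0.770 to 1.49) and ALPP (0.710 to 0.800) overlapped. With GLY_PUE, CEACAM1 (6.93 to 12.6 FPKM) was again above CDX2 (3.59 to 4.50 FPKM), and ALPP and PRAC2 again overlapped. The FPKM of CEACAM1 carries its implied length, which was 2.57 to 3.43 kb untreated and 3.38 to 3.43 kb with PUE. That length was 2.26 to 2.35 kb with GLY and 2.18 to 2.68 kb with GLY_PUE. In GLY number 1, CDX2 held more reads than CEACAM1 (18.4 and 16.8 CPM), with implied lengths of 2.87 and 2.35 kb. There CEACAM1 was above CDX2 only per length. In every other library with GLY or GLY_PUE, CEACAM1 also held more reads than CDX2. How far the order in those libraries rests on the implied length was not tested. The ratio of CEACAM1 to CDX2, in FPKM within a library, was 0.0348 to 0.0980 untreated and 0.0396 to 0.0763 with PUE, against 1.12 to 5.28 with GLY and 1.58 to 3.50 with GLY_PUE. A ratio within a library does not depend on the scaling between libraries, and it shows that the 2 genes changed unequally, not how much each changed. It does depend on the implied lengths of the 2 genes. Among the 3 GLY libraries the ratio was 1.12 in the one labelled 12 h, 2.29 in the one labelled 13 h and 5.28 in the one labelled 14 h. With 1 library at each time, the label time and the library number cannot be told apart. In GLY_PUE, where all 3 labels read 12 h, number 3 was also the highest at 3.50.

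**Figure D3:**
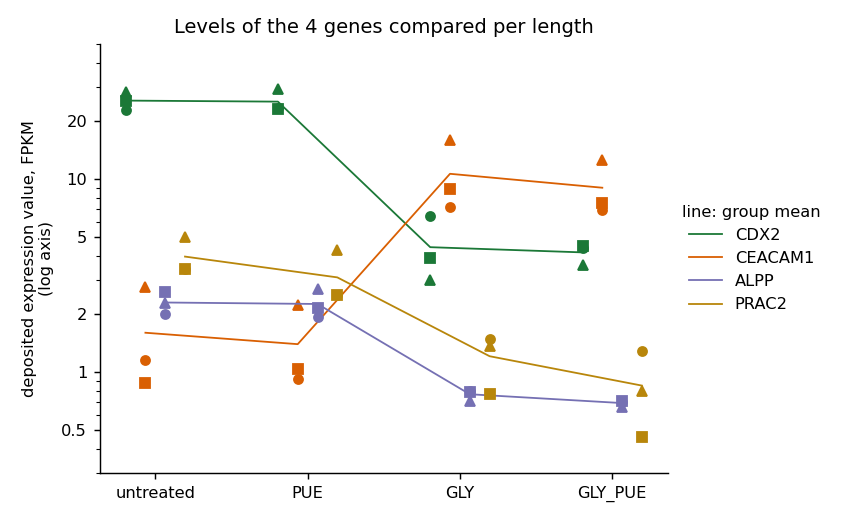
Deposited expression value in FPKM (y axis, log scale) of each gene in each library, by group (x axis), with lines through the group means and symbols for the library number. CDX2 lay above the other 3 genes in the groups without GLY, and CEACAM1 lay above CDX2 in both groups with GLY.

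None of the 4 genes was called for PUE, alone or added to GLY. In PUE against untreated the log2 fold changes and 95% intervals were -0.00 (-0.58 to 0.58) for CDX2, 0.03 (-0.99 to 1.04) for CEACAM1, -0.03 (-0.53 to 0.48) for ALPP and -0.25 (-1.15 to 0.65) for PRAC2. In GLY_PUE against GLY they were -0.25 (-0.84 to 0.34) for CDX2, -0.14 (-1.12 to 0.83) for CEACAM1, -0.14 (-0.66 to 0.39) for ALPP and -0.51 (-1.54 to 0.51) for PRAC2. The groups overlapped for all 4 genes in PUE against untreated. They also overlapped in GLY_PUE against GLY for CDX2, CEACAM1 and PRAC2. For ALPP the lowest GLY library (2.083 CPM) was just above the highest GLY_PUE library (2.078 CPM), and the groups overlapped once the counts were rounded for the test. Groups were apart for 3.18% of all genes tested in PUE against untreated and for 4.87% in GLY_PUE against GLY. The intervals still allow changes of nearly 1 log2 unit or more for CEACAM1 and PRAC2, so this fit does not exclude an effect of that size. With a replicate block the SE for CEACAM1 was 0.19 in PUE against untreated and 0.18 in GLY_PUE against GLY, with log2 fold changes of -0.0018 and -0.15 and no call. No gene of the table was called by edgeR in either comparison (0% and 0%), with 12 and 57 genes at an unadjusted p under 0.05, and DESeq2 and limma-voom also called 0. The test of whether the effect of GLY differed with PUE present called 0 genes (0%) in edgeR, with 33 at an unadjusted p under 0.05, and again 0 in DESeq2 and limma-voom. In the authors' deposited table, however, GLY_PUE against GLY has a log2 ratio of -0.25 with q = 0.00169 for CDX2 and of -0.15 with q = 0.0125 for CEACAM1. The sizes are close to those fitted here, but those q values are far smaller, and in CPM the GLY libraries of CDX2 alone ran from 8.96 to 18.4. How the authors' test treated the spread between libraries is not given in the sources used here.

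**Figure D4:**
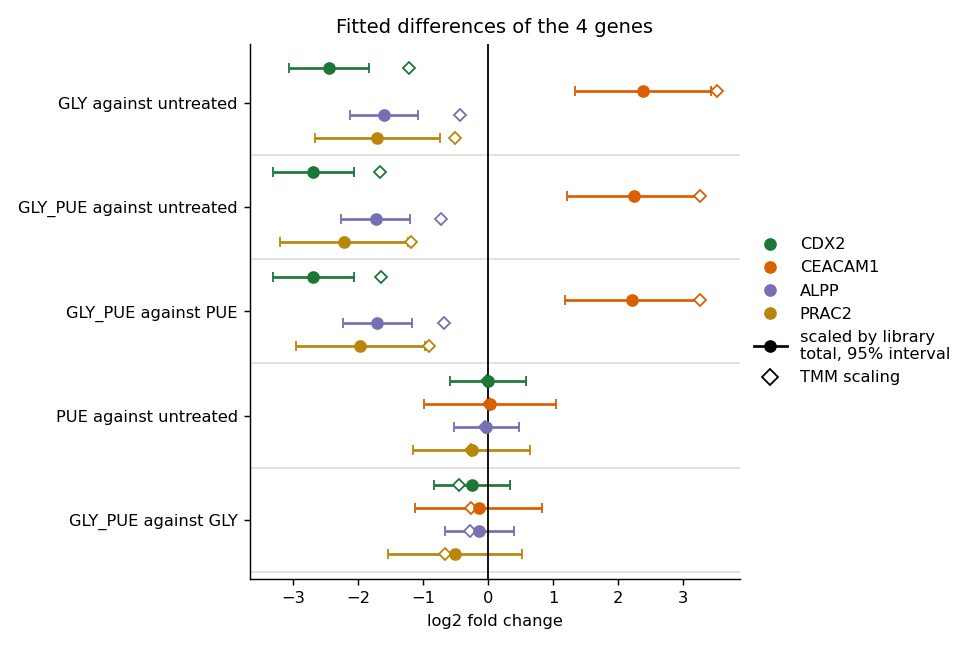
Log2 fold change (x axis) of the 4 genes in 5 comparisons (y axis); filled circles with bars are edgeR estimates scaled by library totals with 95% intervals, and open diamonds are estimates under TMM scaling. In the 3 comparisons for GLY the bars do not cross 0. There the diamonds of CDX2, ALPP and PRAC2 lie nearer to 0 than their circles, and those of CEACAM1 lie farther from it. In the 2 comparisons for PUE all bars cross 0.

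Genes known to act beside the 4 were described from lists, as counts. They are read against the whole table, where 64.6% of genes were called lower with GLY and 57.1% with GLY_PUE, with medians of -1.15 and -1.03, and where TMM left 10.1% and 11.5% called lower. Of 28 transcription factors of the intestine, 11 were in the table and 10 were tested. All 10 were lower with GLY and 8 with GLY_PUE, with medians of -1.42 and -1.47. Under TMM 2 of the 10 were called lower with GLY and the fold changes of 2 were above 0. The 2 still called were CDX2 and ASCL2, a crypt stem cell factor, which had a log2 fold change of -2.64 by library totals (edgeR adjusted p = 4.88e-05). FOXA2, an endoderm pioneer factor, was at -1.97, and GFI1, a secretory lineage repressor, at -1.12, which turned to 0.015 under TMM. Of 16 crypt stem cell genes, 8 were in the table, and all 8 were lower with GLY and 7 with GLY_PUE, with medians of -2.15 and -2.11. In this list 5 of the 8 were still called lower under TMM in both comparisons, with 1 above 0. Among its members were RNF43 and ZNRF3, ubiquitin ligases that clear Wnt receptors, at -3.03 and -1.93, and AXIN2, a scaffold of the beta-catenin destruction complex, at -2.37 (edgeR adjusted p = 1.31e-05, 6.23e-05 and 1.57e-05).

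Absorptive and brush border genes were thinly covered, with 6 of 41 in the table and 5 tested. With GLY 3 were lower (VIL1, ALPP and EPS8) and 1, CEACAM1, was higher. With GLY_PUE 3 were lower (VIL1, ALPP and TSPAN8) and CEACAM1 was again higher. The medians were -1.32 and -1.15, and 3 of 5 is near the share of lower calls in the whole table. Under TMM none of them was called lower with GLY and 1 was with GLY_PUE. VIL1, an actin bundler of microvilli, had 5.17 to 10.0 CPM untreated and 2.41 to 3.14 CPM with GLY, a log2 fold change of -1.32 (edgeR adjusted p = 0.00392). EPS8, an actin capping protein of the same structure, was at -1.10 with GLY (edgeR adjusted p = 0.0264). With GLY_PUE EPS8 was at -0.76 and was not called (edgeR adjusted p = 0.101), and TMM turned this value to 0.25. TSPAN8, a tetraspanin of epithelial cells, was at -2.05 with GLY, which was not called (edgeR adjusted p = 0.0633), and at -2.30 with GLY_PUE, which was (edgeR adjusted p = 0.0487). REP15, which was the 1 gene in the table of 14 goblet cell genes, was at -2.45 with GLY (edgeR adjusted p = 0.00236), from 1.79 to 2.77 CPM untreated to 0.0945 to 0.843 CPM. Under TMM REP15 was at -1.37 with GLY and was not called (edgeR adjusted p = 0.0679). CHGB and SCG2, granins of endocrine cells and the 2 genes in the table of 16 enteroendocrine genes, were at 1.02 and 1.30 and were not called (edgeR adjusted p = 0.0779 and 0.137), but both were called higher under TMM.

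By library totals, the 2 CEACAM genes were called in opposite directions with GLY_PUE, and both alkaline phosphatases tested were called lower with GLY and with GLY_PUE. Of 12 CEACAM genes only CEACAM1 and CEACAM19 were in the table. CEACAM19 was at -1.11 with GLY, which was not called (edgeR adjusted p = 0.0518), and at -1.37 with GLY_PUE (edgeR adjusted p = 0.0258), and its value with GLY was 0.061 under TMM. The tissue-nonspecific alkaline phosphatase ALPL was at -2.07 with GLY (edgeR adjusted p = 0.0191), on 0.647 to 0.838 CPM untreated and at most 0.378 CPM with GLY, and was not called with GLY under TMM. Of 11 genes of the PRAC and HOXB neighbourhood, PRAC2 among them, 6 were in the table. All 6, PRAC2 included, were called lower with GLY and with GLY_PUE, with medians of -1.67 and -1.95. Over all genes tested, 64.6% and 57.1% were called lower. Under TMM 1 and 2 of the 6 were called lower, beside 10.1% and 11.5% of all genes tested. HOXB13, the neighbour of PRAC2 and a posterior homeobox factor, had 7.06 to 10.1 CPM untreated and 1.51 to 1.83 CPM with GLY, a log2 fold change of -2.27 (edgeR adjusted p = 5.27e-05). It was the HOXB gene still called with GLY under TMM, at -1.11. HOXB8, HOXB4 and HOXB7 were at -2.33, -1.64 and -1.47. GSX1, which lies in the ParaHox cluster with CDX2, was at -3.33 with GLY (edgeR adjusted p = 0.00458) on 5 reads in all over the GLY libraries. With GLY it was not called under TMM (-2.21, edgeR adjusted p = 0.0508). With GLY_PUE, on 1 read in all, GSX1 was called under TMM (-4.38, edgeR adjusted p = 0.00474).

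Markers of other cell types moved as well, and their part in these results was not tested. Over all genes tested, 19.7% were called higher and 64.6% lower with GLY by library totals. Under TMM those shares were 23.7% and 10.1%. Of 11 squamous epithelium markers 5 were in the table, with 3 higher and 1 lower with GLY, and their summed level went from 4.67 to 6.17 CPM untreated to 33.0 to 52.9 CPM with GLY. The rise of the sum came mainly from the stress keratins KRT16 and KRT6A. KRT16 was at 0.478 to 0.593 CPM untreated and 16.9 to 32.6 CPM with GLY, and KRT6A at 3.52 to 3.88 and 14.3 to 17.7 CPM. SPRR1B was also called higher. KRT6B of the same list was called lower with GLY (-2.29, edgeR adjusted p = 0.0221), and KRT14 was not called (0.63, edgeR adjusted p = 0.382). Under TMM 3 of the 5 were called higher and 0 lower. SPRR1B was at 0 in all 3 PUE libraries, and no other marker in the table was at 0 throughout a group. Of 12 trophoblast markers 4 were in the table, with a summed level of 25.5 to 32.3 CPM untreated and 12.3 to 17.0 CPM with GLY. ALPP and PSG1 of these were lower with GLY, and PSG1 turned to 0.13 under TMM. CGB5 was at 2.31 with GLY, which was not called (edgeR adjusted p = 0.0759), and was called higher under TMM (3.49, edgeR adjusted p = 0.0369). CGB3, which was not tested, had 0.260 to 0.358 CPM untreated and 0.292 to 0.584 CPM with GLY. PDGFRB, 1 of 9 fibroblast markers, was higher (0.838 to 0.995 CPM untreated, 1.64 to 3.57 CPM with GLY). Of 7 leukocyte markers 2 were in the table, and they moved in opposite directions with GLY. CD68 was at 2.16 (edgeR adjusted p = 5.45e-05) and CD14 at -3.01 (edgeR adjusted p = 0.000594). Their sum was 4.63 to 6.91 CPM untreated and 17.1 to 24.4 CPM with GLY, a rise that came from CD68 alone. None of 9 gastric or 6 endothelial markers was in the table.

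**Figure D5:**
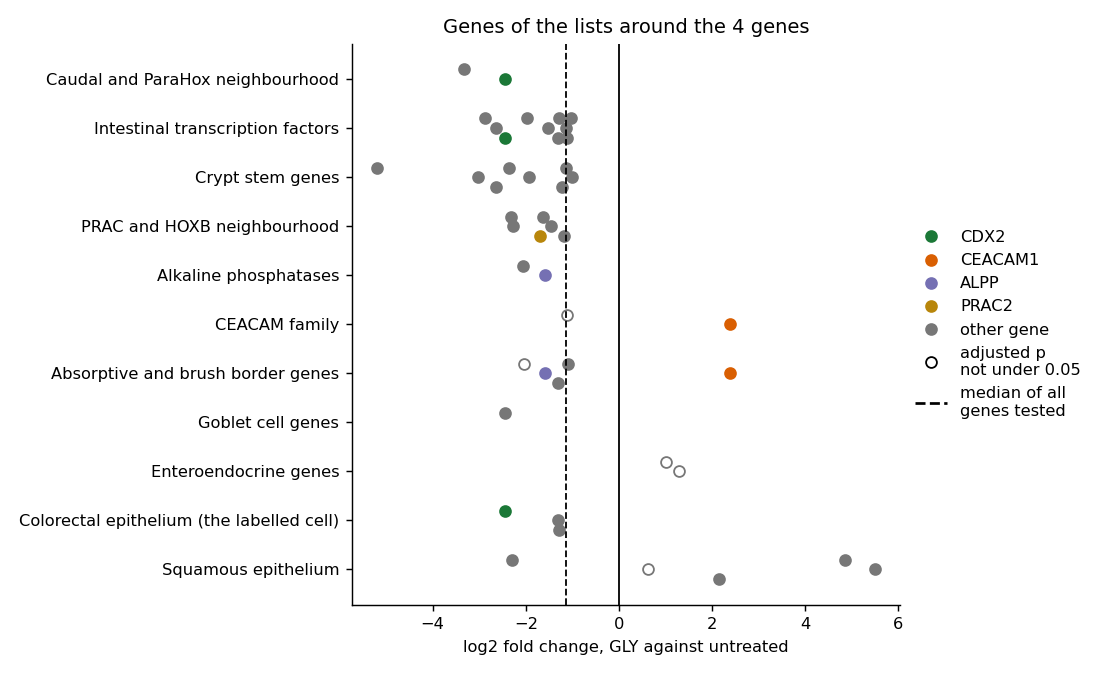
Log2 fold change in GLY against untreated (x axis) of each tested gene of the lists (y axis); filled circles have an edgeR adjusted p under 0.05, open ones do not, the solid line is 0 and the dashed line the median of all genes tested. CEACAM1 lies on the other side of 0 from CDX2, ALPP, PRAC2 and all tested transcription factors and crypt stem cell genes.

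The genes whose pattern was most like each of the 4 were found by Pearson's r of log2 CPM over the 12 libraries, among the genes tested. The libraries share the totals used to scale them, and those with and without GLY are apart for each of the 4 genes, so r is given as a description. For CDX2 these were SP5, a zinc finger transcription factor known as a Wnt target (r = 0.998), ASCL2 (0.998) and GJB1, a gap junction protein (0.998). SP5 went from 127.3 to 158.6 CPM untreated to 6.05 to 15.0 CPM with GLY. For CEACAM1 they were RGS16, a regulator of G protein signalling (0.980), the lipid raft protein RFTN1 (0.978) and PTGS1, cyclooxygenase-1 (0.978). PTGS1 held 0.395 to 0.887 CPM untreated and 1.92 to 4.97 CPM with GLY. For ALPP they were the ligand BMP4 (0.991), the transcriptional regulator ZNF703 (0.990) and the semaphorin SEMA6B (0.990). For PRAC2 they were the chemokine-like factor CKLF (0.992), the cyclin-dependent kinase inhibitor CDKN1C (0.963) and the transporter ABCC6 (0.961). Without the libraries numbered 3, most of the 12 moved down the order: the 3 genes named for CEACAM1 ranked 116 to 172, those for ALPP 25 to 50 and those for CDX2 4 to 17. For PRAC2, CKLF was still the first, with ABCC6 at 10 and CDKN1C at 25. Between the 4 genes themselves r was 0.985 for CDX2 and ALPP, 0.900 for CDX2 and PRAC2 and also for ALPP and PRAC2, and -0.899 for CDX2 and CEACAM1.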

How the data were processed

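RNA was sequenced from 12 SW480 libraries, and the table deposited by the authors gives, per gene and library, a read count and an expression value. The counts are estimated counts per the file headers and values, 58.2% of them whole (within 1e-08), and were rounded for count tests. The authors' expression values behave as FPKM. The deposited table also gives the authors' log2 ratios and their q-values. The submitters' processing notes name TopHat and DESeq 1.32.0, and genome build and counting settings have no source here. Library totals came from 625 genes, set to an absolute scale by 39 single-transcript genes of GENCODE 29 (first library 20.2 M reads, 95% interval 20.0 to 20.7), and the listed genes hold 13.8% to 15.4% of the reads.

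Tests were edgeR 4.0.16 quasi-likelihood fits over all 12 libraries in R 4.3.3, scaled by these totals, after edgeR's default filter left 3429 genes, with Benjamini-Hochberg adjustment and a threshold of 0.05. The code was tested on simulated data. Other settings tried were scaling by TMM or RLE, DESeq2 1.42.0 and limma 3.58.1 (voom, and log2 of the expression value plus 1 or 0.1), no filter or a stricter one of 50 reads, only the libraries compared, a replicate block, and leaving out libraries. The genes named besides the 4 were every list gene in the table for lists with up to 4 there, otherwise the 4 with the smallest p in GLY against untreated, and the 3 most correlated with each of the 4 (log2 CPM, prior count 2). TSPAN8 and the markers of other cell types fall outside this rule and were chosen after their values were seen. The 4 genes and the lists were chosen with earlier results of these data known. Sequences are RefSeq's, aligned with Biopython 1.88. Some results of marker lists are not reported here.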

Additional observations from a re-analysis of the deposited data

How the results depend on the processing

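Scaling changed the most calls. Calls in GLY against untreated went from 2890 to 1158 with TMM and 1188 with RLE, in GLY_PUE against untreated from 2651 to 1211 and 1234, and in GLY_PUE against PUE from 2669 to 1232 and 1250. ALPP with GLY was then at -0.44 and -0.50 (edgeR adjusted p = 0.222 and 0.131) and PRAC2 with GLY at -0.52 and -0.58 (0.464 and 0.372). In GLY_PUE against untreated, PRAC2 was at -1.18 under TMM (edgeR adjusted p = 0.0559) and at -1.21 under RLE, where it was still called (edgeR adjusted p = 0.0477). In GLY_PUE against PUE, PRAC2 was at -0.92 and -0.94 (edgeR adjusted p = 0.145 and 0.128). TMM raised log2 fold changes in GLY against untreated by a median of 1.13. Every gene listed was chosen for a difference in at least 1 comparison, so its typical gene need not be unchanged. The authors' deposited log2 ratios with GLY were -1.58 for ALPP and -1.71 for PRAC2, near the -1.59 and -1.70 by library totals. Which scaling is nearer to the true change was not tested. CDX2 and CEACAM1 kept their direction and call in the 3 comparisons for GLY under all alternatives run; for GLY against untreated the ranges were -2.75 to -1.22 and 1.98 to 3.52. Among 29 other genes named, 884 of 970 alternative values kept direction and side of the threshold, 51 lost a call (21 under TMM, 20 under RLE, the rest with libraries left out or only those compared), 27 gained one and 8 changed sign. Those 8 were, with GLY under TMM, GFI1 (0.015), CEACAM19 (0.061), CKLF (0.11) and CDKN1C (0.10), under RLE CKLF (0.038) and CDKN1C (0.035), and with GLY_PUE EPS8 under TMM (0.25) and RLE (0.22). For PUE against untreated, CEACAM1 was at -0.0018 with a replicate block, -0.056 without the libraries numbered 3, and -0.091 and -0.13 on the expression values plus 1 and plus 0.1. Leaving out 1 library at a time gave -0.14 to 0.12 for CDX2, -0.49 to 0.46 for CEACAM1, -0.17 to 0.074 for ALPP and -0.57 to 0.014 for PRAC2 with PUE. In GLY_PUE against GLY it gave -0.47 to 0.057 for CDX2 and -0.58 to 0.26 for CEACAM1, with 0 to 1 genes called, and 0 to 1 for the interaction. The stricter filter removed PRAC2. Library numbers correlated within pairs at 0.04 to 0.82, with 15 of 18 over 0.1. All 3 pairs were over 0.1 in PUE against untreated (0.55 to 0.82) and in GLY_PUE against GLY (0.11 to 0.42). Among libraries of other groups, 11 of 12 libraries correlated best with their own number. The main fit had no replicate block because the labels do not say that a number marks a shared culture or day. The SE of CEACAM1 in GLY against untreated was 0.20 with a block and 0.48 without it. With a replicate block the calls were 3086, 2926 and 2949 in the 3 comparisons for GLY and 0 in the others.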
